A study of Homo sapiens with 9 samples.

Results

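The TF TFCP2 was overexpressed in 293T cells, an immortal line of human embryonic kidney origin, and the RNA library of these cells was set against a control library and against 7 libraries of other TFs. The TFCP2 cells had been transfected with a lentiviral vector plasmid in which the EF1A promoter, active in most cell types, drives the TFCP2 open reading frame and which also carries EGFP. The 7 other TF libraries came from 293T cells given NRF1, E2F4, EGR1, ZBTB7A, HOXA11, RORA or NKX2-8 in the same way, and the control came from 293T cells that the labels call blank and the methods describe as given an empty plasmid. All cells were taken 48 h after transfection. Each condition had 1 library, so TFCP2 and control were 2 of 9 libraries and had no replicate. Genes were chosen by their level in CPM, the counts scaled to a common library size: of 57163 genes in the table, 15444 other than TFCP2 reached 1 CPM in at least 1 library, and 1037 of them lay above and 810 below all 8 other libraries in the TFCP2 library.

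TFCP2, also known as LSF or CP2, is a broadly expressed TF of the grainyhead family. It binds DNA as a dimer or tetramer at direct repeats of a short motif that lie about 1 helix turn apart. It was first described at the alpha globin and SV40 promoters, it has been linked to thymidylate synthase expression at the entry to S phase, and it promotes growth in liver cancer cells. In the study it stood among the TFs taken as controls for those that favour conserved lncRNAs.

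The inserted gene was checked first. TFCP2 had 264495 counts in the TFCP2 library. It had 685 counts in the NRF1 library, 653 in E2F4, 703 in EGR1, 664 in ZBTB7A, 665 in HOXA11, 699 in RORA and 692 in NKX2-8, and 9812 in the control library. The insert was thus seen in the library labelled TFCP2, and the control library stood apart from the 7 other TF libraries, which lay close together. TFCP2 took 1.49% of all counts of its library. Its level was 15141 CPM in the TFCP2 library, 36.6 to 45.9 CPM in the 7 other TF libraries and 533 CPM in the control library. The ratio over control was 28.4 (27.8 to 29.0, 95% exact conditional binomial interval, which covers counting error only), and the ratio over the mean of the 7 other TF libraries was 357. The control library held 12.6 times that mean, or 3.52% of the level in the TFCP2 library. Where the TFCP2 counts of the control library came from was not tested. TFCP2 lies on chromosome 12 of GRCh37 from 51487446 to 51566917 on the minus strand. Of the genes within 100 kb, SLC11A2 had a log2 ratio over control of -0.04, LETMD1 of -0.06, CSRNP2 of 0.18, POU6F1 of 0.15, DAZAP2 of -0.01 and SMAGP of -0.10, and all of these were within the range of the other 8 libraries. TFCP2 is left out of every count of genes that follows.

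**Figure D1:**
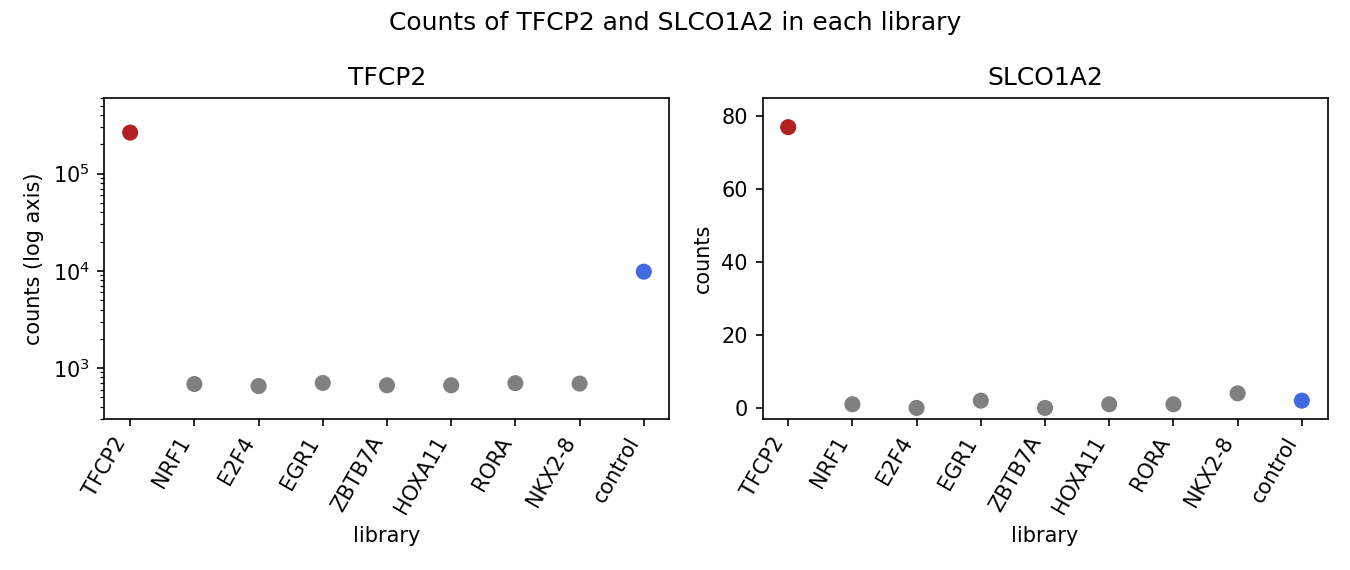
Counts of TFCP2 (left panel, log axis) and SLCO1A2 (right panel, linear axis) in each of the 9 libraries, 1 point per library, with the TFCP2 library in red, the 7 other TF libraries in grey and the control library in blue. TFCP2 stood at 264495 counts in its own library and at 9812 in the control library, whereas SLCO1A2 stood at 77 counts in the TFCP2 library and at 4 or fewer in every other library.

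Libraries held 14177970 to 18915400 counts, with 17746740 for TFCP2 and 18915400 for the control, and scaling factors were 0.972 to 1.08. All 7 markers of 293T cells were measured (mean of 0.5 CPM or more), against 4 of 8 fibroblast, 1 of 8 leukocyte, 0 of 6 hepatocyte and 1 of 5 endothelial markers. Among measured markers at 1 CPM or more in the highest library, none was outside the range of the other libraries in the TFCP2 library. The fibroblast markers LUM and PDGFRB, which did not reach 1 CPM in any library, were lowest with TFCP2. PDGFRB had 2 counts with TFCP2, 6 to 15 with the other TFs and 3 in the control, and LUM had 6 counts with TFCP2. COL3A1, a fibroblast marker with more counts, was within the range and not lowest with TFCP2. It had 57 counts with TFCP2, 31 to 63 with the other TFs and 76 in the control. Its log2 ratio was 0.17 over the 7 other TF libraries and -0.33 over control. The 4 measured fibroblast markers had a median log2 ratio of -0.46 over the 7 other TF libraries and -0.30 over control. Of these 4, 1 was higher than the mean of the 7 and 0 were higher than control. In bulk RNA, fewer cells that express a gene and less RNA of that gene per cell cannot be told apart.

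SLCO1A2 was the gene furthest above the other libraries. It encodes OATP1A2, a transporter in the plasma membrane that takes up bile salts, steroid conjugates and drugs and is known from the blood-brain barrier, bile duct and kidney. It had 77 counts in the TFCP2 library. The other libraries had 1 count for NRF1, 0 for E2F4, 2 for EGR1, 0 for ZBTB7A, 1 for HOXA11, 1 for RORA, 4 for NKX2-8 and 2 for the control. No library came near the TFCP2 library, and the highest of the others was NKX2-8. The level was 4.41 CPM in the TFCP2 library, 0.0819 ± 0.0915 CPM in the 7 other TF libraries (SD, n = 7 libraries, 1 per TF) and 0.109 CPM in the control library. The ratio over control was 40.5, with a counting interval of 10.8 to 341 because the control had 2 counts, and the ratio over NKX2-8 was 16.6 (6.23 to 62.5). In edgeR's quasi-likelihood test of the TFCP2 library against the 7 other TF libraries, SLCO1A2 rose by 5.64 on the log2 scale (adjusted p = 0.0329). The spread in this test is that between different TFs, and the single TFCP2 library was assumed to vary like them. SLCO1A2 passed the filter on low counts through the TFCP2 library alone, and the test used the same counts that placed it above the other libraries, so its p is no independent support. It was the only 1 of 17157 genes called higher (0.00583%), and no gene was called lower (0%). At an unadjusted p under 0.05 edgeR had 40 genes higher and 126 lower, and DESeq2 likewise called 1 gene higher and 0 lower. The edgeR call was lost when NRF1 (adjusted p = 0.0537), EGR1 (0.0826), ZBTB7A (0.0746), HOXA11 (0.157) or RORA (0.150) was left out, with edgeR log2 ratios of 5.45 to 5.77, and over all alternatives adjusted p was 0.000297 to 0.157.

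The genomic surroundings of SLCO1A2 did not share its level. The gene spans 21417534 to 21572528 on the minus strand of chromosome 12 in GRCh37. The neighbouring transporter genes SLCO1B1, SLCO1B7 and SLCO1B3-SLCO1B7 had 0 counts in the TFCP2 library and at most 1 in any other. IAPP, the islet amyloid gene, and GYS2, the liver glycogen synthase, also had 0 counts in the TFCP2 library. PYROXD1, an oxidoreductase gene, had 165 counts in the TFCP2 library, 110 to 188 in the 7 other TF libraries and 153 in the control library. PYROXD1 was thus within the range of the other libraries. RECQL, a DNA helicase gene, had 1086 counts in the TFCP2 library, 788 to 998 in the 7 other TF libraries and 1172 in the control library. SPX, the gene of the peptide hormone spexin, lay below all 8 other libraries, with 27 counts in the TFCP2 library, 31 to 40 in the 7 other TF libraries and 52 in the control library, and its ratio over control was 0.547 (0.330 to 0.887). Among the other organic anion transporters, SLCO4A1 had 415 counts in the TFCP2 library, 355 to 486 in the 7 other TF libraries and 433 in the control library. SLCO5A1 had 142 counts with TFCP2, 102 to 223 with the other TFs and 126 in the control. No SLCO gene other than SLCO1A2 was outside the range of the other 8 libraries.

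Promoters are shown for SLCO1A2 and 3 further genes described below, KLF2, MDM2 and DISP3. These genes are examples from outside the range of the other libraries. By the ratio of CPM + 0.25 to the nearest library, AMY2B ranked ahead of KLF2, and PSD2 and KCNK15 lay further below than DISP3. MDM2 was chosen after its values were seen. Each promoter is the 300 bases before the canonical start in GENCODE v44lift37, read from GRCh37 in the direction of the gene. Capitals mark matches to the repeats CTGGNNNNNNCTGG, CNGGNNNNNNCNGG or CNGGNNNNNCNGG, which are forms of the TFCP2 motif in 2 spacings, or to the grainyhead palindrome AACCGGTT, on either strand. The first repeat is contained in the second. SLCO1A2 is at chr12:21487852-21488151 on the minus strand, KLF2 at chr19:16435337-16435636 on the plus strand, MDM2 at chr12:69201657-69201956 on the plus strand and DISP3 at chr1:11538912-11539211 on the plus strand.
SLCO1A2: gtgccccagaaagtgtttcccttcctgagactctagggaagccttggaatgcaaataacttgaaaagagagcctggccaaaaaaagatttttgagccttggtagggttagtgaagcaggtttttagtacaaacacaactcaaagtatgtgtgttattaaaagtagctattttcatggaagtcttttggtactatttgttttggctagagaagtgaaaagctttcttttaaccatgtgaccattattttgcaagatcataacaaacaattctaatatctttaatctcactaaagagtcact
KLF2: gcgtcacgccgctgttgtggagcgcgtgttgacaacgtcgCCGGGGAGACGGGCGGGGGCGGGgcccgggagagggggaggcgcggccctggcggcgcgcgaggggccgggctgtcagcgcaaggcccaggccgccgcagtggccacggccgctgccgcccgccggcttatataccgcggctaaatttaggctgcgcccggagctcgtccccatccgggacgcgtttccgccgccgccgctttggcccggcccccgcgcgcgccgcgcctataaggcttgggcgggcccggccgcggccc
MDM2: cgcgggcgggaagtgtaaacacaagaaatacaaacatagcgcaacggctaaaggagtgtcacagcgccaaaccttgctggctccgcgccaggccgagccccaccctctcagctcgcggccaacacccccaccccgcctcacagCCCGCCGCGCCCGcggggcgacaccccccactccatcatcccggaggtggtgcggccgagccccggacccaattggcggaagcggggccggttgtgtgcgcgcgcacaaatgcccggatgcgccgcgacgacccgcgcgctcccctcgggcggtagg
DISP3: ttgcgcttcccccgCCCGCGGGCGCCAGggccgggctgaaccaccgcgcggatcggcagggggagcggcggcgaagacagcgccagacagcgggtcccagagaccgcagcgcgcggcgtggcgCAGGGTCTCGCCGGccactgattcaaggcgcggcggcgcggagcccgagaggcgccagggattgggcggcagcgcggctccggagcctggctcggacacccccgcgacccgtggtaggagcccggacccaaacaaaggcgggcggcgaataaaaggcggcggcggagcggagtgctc

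The window of SLCO1A2 held no match and had a GC content of 36%. Of the 15 annotated start sites of this gene, 1 had any match in the 300 bases before it. KLF2 had 2 overlapping matches, from -260 to -248 and from -251 to -238 relative to the start. MDM2 had 1 match, from -157 to -145, and DISP3 had 2, from -286 to -273 and from -177 to -164. Such matches are common in GC-rich promoters, so a match describes the letters and not a bound site. CNGGNNNNNNCNGG was in 36.7% and CNGGNNNNNCNGG in 38.4% of the 34897 promoters searched, CTGGNNNNNNCTGG in 3.92% and AACCGGTT in 0.112%. Among genes at 1 CPM or more, CTGGNNNNNNCTGG was in 3.95% of the promoters of genes above all 8 other libraries, in 3.44% of those below and in 3.77% of all 14786. CNGGNNNNNCNGG was in 44.6% of the promoters above, 55.2% of those below and 52.4% of all, and the median GC content was 63.3%, 66.7% and 65.3% for the same groups of genes.

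Against the control library alone, few genes were 2-fold apart, and most of them had low counts. Of 14045 genes at 1 CPM or more in the higher library of this pair, 68 were at least 2-fold higher (0.484%) and 26 at least 2-fold lower (0.185%) in the TFCP2 library. The higher genes were 39 mRNAs, 26 lncRNAs and 3 of other kinds, and the lower ones were 11 mRNAs and 15 lncRNAs. In 60 of the 68 and 25 of the 26 the highest of the 9 libraries was under 5 CPM. Among the 8638 genes at 20 CPM or more in the highest of the 9 libraries, none was 2-fold apart between TFCP2 and control.

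For many of these genes it was the control library that stood at the edge of the 9. Of the 68 higher genes, 22 were above all 8 other libraries in the TFCP2 library and 45 were within the range of the 7 other TF libraries. In 38 the control was below all 7. Of all 15444 genes at 1 CPM or more in the highest library, 1037 were above all 8 others with TFCP2. The control was below all 7 for 1426 of them. Choosing genes by the ratio of TFCP2 to control favours such places at the edge, so these counts only describe the chosen genes. NFATC2, a TF of calcium signalling in lymphocytes, had 20 counts in the TFCP2 library, 7 to 23 in the 7 other TF libraries and 3 in the control library. NHLH2, a neuronal bHLH TF, had 22 counts with TFCP2, 14 to 50 with the other TFs and 4 in the control. In both the TFCP2 library was like the other TF libraries. TNXB, the matrix protein tenascin X, had 42 counts with TFCP2, 17 to 79 with the other TFs and 13 in the control. The lncRNA LINC02846 had 34 counts with TFCP2, 12 to 65 with the other TFs and 8 in the control. For all 4 genes the control was the lowest of the 9 libraries and TFCP2 was within the range of the other TF libraries. GDF15, a stress cytokine and p53 target, had 148 counts in the TFCP2 library, 44 to 257 in the 7 other TF libraries and 54 in the control library, with a ratio over control of 2.89 (2.10 to 4.02). NECTIN4, an epithelial adhesion gene, was different in that TFCP2 was the highest library. It had 31 counts with TFCP2, 6 to 29 with the other TFs and 8 in the control.

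Most of the lower genes lay at the edge of the 9 libraries themselves. In the TFCP2 library 20 of the 26 were below all 8 other libraries and 6 were within the range of the 7 other TF libraries. In 11 of the 26 the control was above all 7 other TF libraries. Of all 15444 genes at 1 CPM or more in the highest library, 810 were below all 8 others with TFCP2. The control was above all 7 for 2032 of them. Choosing genes by this ratio favours such places here too. KLHL4, a kelch repeat protein gene, had 9 counts in the TFCP2 library, 9 to 18 in the 7 other TF libraries and 31 in the control library. CCNB3, a B-type cyclin of meiosis, had 16 counts with TFCP2, 16 to 40 with the other TFs and 46 in the control. The lncRNA LINC03065 had 4 counts with TFCP2, 4 to 13 with the other TFs and 21 in the control. The control was the highest library for each of these, and TFCP2 was the lowest by CPM, with ratios to the nearest library of 0.948, 0.828 and 0.917. EIF5-DT, the divergent lncRNA of the translation factor gene EIF5, had 3 counts in the TFCP2 library, 4 to 14 in the 7 other TF libraries and 19 in the control library. C2, a component of the classical complement pathway, had 6 counts in the TFCP2 library, 13 to 24 in the 7 other TF libraries and 21 in the control library, and was below every other library.

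When the mean of the 7 other TF libraries took the place of the control, 8 genes were at least 2-fold higher and 231 at least 2-fold lower in the TFCP2 library. Only 2 of the genes were higher and 6 lower on both comparisons. The mean of 7 is raised by a gene that is high in 1 of them, as for ANO1, a calcium-activated chloride channel gene, which had 4 counts in the TFCP2 library, 188 in E2F4, 8 to 41 in the 6 other TF libraries and 11 in the control library.

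Measured against the range of all 8 other libraries, the TFCP2 library stood out for few genes and by small amounts. It was above the range for 1037 of 15444 genes (6.71%) and below the range for 810 (5.24%). These were the fewest of any library. By the same rule, with all inserted TFs left out, the sum of genes above and below was 1847 for TFCP2, against 2333 to 6604 for the other 8 libraries. RORA had 1393 above and 1033 below, HOXA11 had 1223 and 1110, NRF1 had 2951 and 3653, and the control had 1839 and 1231. The gap to the nearest library was small, with a median ratio of 1.03 for the genes above and 0.95 for those below. The counting interval of that ratio lay past 1 for 18 of the genes above and 2 of those below in the TFCP2 library, whereas RORA had 139 and 10 such genes and the control 258 and 34. These intervals are on the gap that placed the genes, and describe the counts only.

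**Figure D2:**
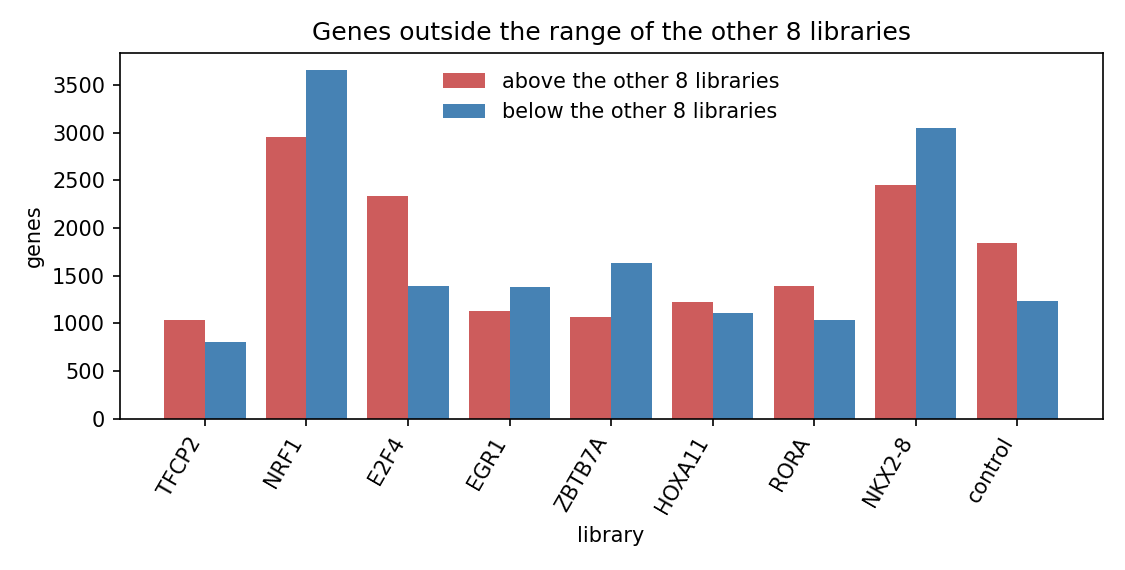
Number of genes whose level in a library was above (red bars) or below (blue bars) that of all 8 other libraries, for each of the 9 libraries, at 1 CPM or more in the highest library. TFCP2 had 1037 above and 810 below, the smallest sum of the 9, and NRF1 with 2951 and 3653 the largest.

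At a margin of 1.5-fold from the nearest library, 2 genes stood above and 23 below in the TFCP2 library, and at 2-fold only SLCO1A2 stood above and none below. The second gene above at 1.5-fold was an unnamed lncRNA, CATG00000023617, with 32 counts in the TFCP2 library, 5 to 20 in the 7 other TF libraries and 19 in the control library. KLF2, named for the size of its gap, is a TF of endothelial and T cell quiescence. It had 98 counts in the TFCP2 library, 41 to 64 in the 7 other TF libraries and 55 in the control library, with a ratio to the nearest library, NRF1, of 1.43 (1.03 to 2.01). ZNF117, a zinc finger gene, had 87 counts in the TFCP2 library, 31 to 54 in the 7 other TF libraries and 58 in the control library. SRXN1, which reduces oxidised peroxiredoxins, had 103 counts with TFCP2, 59 to 73 with the other TFs and 77 in the control. ZNF117 and SRXN1 were both highest with TFCP2, and by CPM the next library was ZBTB7A and not the control. MAPK10, the neuronal JNK3 kinase gene, had 51 counts with TFCP2, 20 to 35 with the other TFs and 37 in the control. MLH3, a DNA mismatch repair gene, had 58 counts with TFCP2, 23 to 44 with the other TFs and 35 in the control. In each the TFCP2 library was the highest with no overlap, but the counting intervals of ZNF117, SRXN1, MAPK10 and MLH3 against the nearest library included 1. AMY2B, a pancreatic amylase gene whose reads are hard to assign among its near-identical copies, had 21 counts in the TFCP2 library, 4 to 12 in the 7 other TF libraries and 13 in the control library. SULT1C4, a sulfotransferase gene, had 92 counts with TFCP2, 46 to 63 with the other TFs and 78 in the control. TMEM225B had 19 counts and ZFP2, a zinc finger gene, 23 counts in the TFCP2 library. For these 4 genes too the interval included 1.

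Among lncRNAs above the range, the conserved lncRNA MIF-AS1 had 71 counts in the TFCP2 library, 20 to 49 in the 7 other TF libraries and 53 in the control library. C21orf62-AS1, also conserved, had 33 counts with TFCP2, 11 to 23 with the other TFs and 22 in the control. SEPTIN7-DT, the divergent transcript of a septin gene, had 29 counts with TFCP2, 6 to 19 with the other TFs and 12 in the control. For these 3 lncRNAs the next highest library by CPM was a TF library and not the control. CD27-AS1 had 37 counts with TFCP2, 16 to 25 with the other TFs and 26 in the control. PPP1R26-AS1 had 56 counts with TFCP2, 32 to 43 with the other TFs and 47 in the control. All these intervals against the nearest library included 1. As no source used here gives the strand setting, reads of antisense lncRNAs and of the genes they overlap cannot be told apart.

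Below the range, DISP3, a sterol-sensing domain protein of the nervous system, had 9 counts in the TFCP2 library, 26 to 86 in the 7 other TF libraries and 20 in the control library. PSD2, an exchange factor for ARF6, had 2 counts in the TFCP2 library, 8 to 19 in the 7 other TF libraries and 9 in the control library. KCNK15, a gene of the two-pore potassium channel family, had 4 counts with TFCP2, 10 to 19 with the other TFs and 16 in the control. These 3 genes had few counts with TFCP2 and no overlap with any other library. DIO3, the thyroid hormone inactivating deiodinase, had 0 counts in the TFCP2 library, 4 to 74 in the 7 other TF libraries and 3 in the control library, so its difference from the control was within what a count of 0 allows. ZNF331 had 2 counts with TFCP2, 8 to 19 with the other TFs and 7 in the control. ADGRE2, a leukocyte adhesion GPCR gene, had 1 count with TFCP2, 5 to 17 with the other TFs and 7 in the control. The control was nearest to TFCP2 for DIO3 and ZNF331, and E2F4 for ADGRE2. Among lncRNAs, FAM88C had 9 counts in the TFCP2 library, 19 to 33 in the 7 other TF libraries and 22 in the control library. LMO7-AS1 had 4 counts with TFCP2, 9 to 16 with the other TFs and 11 in the control. ZNF473CR had 1 count with TFCP2, 6 to 20 with the other TFs and 5 in the control. IRX4-AS1 had 0 counts with TFCP2, 2 to 51 with the other TFs and 3 in the control. The TFCP2 library was the lowest for each, yet no counting interval of these 12 genes against the nearest library, with C2 and ANO1 among them, excluded 1.

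Genes with many counts in at least 1 library were also looked at, and those named here were chosen after their values were seen. Of the 8638 genes at 20 CPM or more in the highest library, 551 were above and 253 below all 8 other libraries in the TFCP2 library, but only 20 above and 15 below were past the nearest library by 1.1-fold or more. MDM2, the ubiquitin ligase that restrains p53, had 1516 counts in the TFCP2 library, 917 to 1166 in the 7 other TF libraries and 1080 in the control library. Its level was 86.8 CPM in the TFCP2 library, 67.5 ± 4.50 CPM in the 7 other TF libraries (SD, n = 7 libraries) and 58.7 CPM in the control library, and its ratio to the nearest library was 1.18 (1.09 to 1.28). The conserved lncRNA NEAT1, the scaffold of paraspeckles, had 1755 counts in the TFCP2 library, 874 to 1466 in the 7 other TF libraries and 1496 in the control library. Both were highest with TFCP2, MDM2 with NRF1 and NEAT1 with HOXA11 as the next library. BRSK1, a neuronal polarity kinase gene, had 471 counts with TFCP2, 223 to 379 with the other TFs and 349 in the control. FNDC3B, a fibronectin type III protein gene, had 452 counts with TFCP2, 284 to 361 with the other TFs and 323 in the control. ARRDC3, an arrestin-like adaptor gene, had 457 counts with TFCP2, 230 to 389 with the other TFs and 412 in the control. For ARRDC3 the control was next to TFCP2, and for BRSK1 and FNDC3B it was not. CREBRF, a regulator of the unfolded protein response, had 433 counts with TFCP2, 232 to 329 with the other TFs and 335 in the control. Below, FIBCD1, a chitin receptor gene, had 29 counts in the TFCP2 library, 35 to 738 in the 7 other TF libraries and 40 in the control library. FIBCD1 ranged widely among the other TFs, with E2F4 the highest. NOTUM, which inactivates Wnt ligands, had 91 counts with TFCP2, 112 to 581 with the other TFs and 116 in the control. UNC5A, a netrin receptor gene, had 96 counts with TFCP2, 108 to 463 with the other TFs and 126 in the control. FIBCD1 reached 20 CPM through its high libraries, with 1.66 CPM in the TFCP2 library, and NOTUM and UNC5A likewise had 5.21 and 5.50 CPM with TFCP2. The counting intervals of FIBCD1, NOTUM, UNC5A and CREBRF against the nearest library included 1. In all of these genes the TFCP2 library lay outside the other 8 libraries. None of these genes was called by edgeR (adjusted p of 0.999927 for MDM2, which had an unadjusted p of 0.00600).

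The known relatives of TFCP2 were within the range of the other libraries. UBP1, the paralog that can pair with TFCP2, had 1860 counts in the TFCP2 library, 1509 to 2090 in the 7 other TF libraries and 2023 in the control library. TFCP2L1, a paralog of pluripotent cells and kidney epithelium, had 125 counts with TFCP2, 83 to 183 with the other TFs and 110 in the control. Neither paralog stood at an edge of the libraries. GRHL1, an epithelial TF, had 88 counts with TFCP2, 57 to 224 with the other TFs and 80 in the control. GRHL3 had 33 counts with TFCP2, 11 to 36 with the other TFs and 21 in the control. GRHL2 had 1 count in the TFCP2 library and at most 2 in any other.

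Reported targets of TFCP2 were also within the range, several of them at few counts. Of 14 listed genes, 7 were measured at a mean of 0.5 CPM or more. Of these, 0 were 2-fold apart from control or outside the range of the other 8 libraries. Over all genes tested, 0.484% were 2-fold higher and 0.185% lower than control, and 6.71% were above and 5.24% below the range. For so few genes 0 is near these shares and sets the targets apart from no other genes. TYMS, thymidylate synthase, had 2545 counts in the TFCP2 library, 2027 to 3193 in the 7 other TF libraries and 2791 in the control library. FN1, fibronectin, had 1582 counts with TFCP2, 1215 to 1858 with the other TFs and 1818 in the control. AURKB, the mitotic kinase Aurora B, had 2032 counts with TFCP2, 1578 to 2207 with the other TFs and 2342 in the control. The control had more counts of all 3 genes than the TFCP2 library. CDC20, an activator of the anaphase-promoting complex, had 2905 counts with TFCP2, 2290 to 2875 with the other TFs and 2923 in the control. TERT, the telomerase catalytic subunit, had 123 counts with TFCP2, 83 to 158 with the other TFs and 127 in the control. GSK3B, a kinase of glycogen and Wnt signalling, had 673 counts with TFCP2, 514 to 643 with the other TFs and 695 in the control. Here too TFCP2 was close to the control. HBA1, an alpha globin gene, had 4 counts in the TFCP2 library, 5 to 26 in the 7 other TF libraries and 1 in the control library, with a ratio over control of 4.21 (0.417 to 207) and of 0.335 over the mean of the 7 other TF libraries. It was thus below the 7 other TF libraries and above the control, and reads of HBA1 and its near-identical copy HBA2 are hard to assign. HBA2 had 1 count with TFCP2, 0 to 29 with the other TFs and 0 in the control. MMP9, a matrix metalloproteinase gene, had 1 count with TFCP2, 1 to 14 with the other TFs and 1 in the control. ALK, a receptor tyrosine kinase gene, had 0 counts with TFCP2, 0 to 26 with the other TFs and 2 in the control. None of these was clear of both the control and the other TF libraries. SPP1, the osteopontin gene, had 2 counts in the TFCP2 library, 0 to 3 in the 7 other TF libraries and 3 in the control library. HBG1, HBG2 and IL4 had 0 counts in all 9. The low or absent counts of these tissue-restricted genes leave their change not detectable at this depth. Of 12 listed partner proteins, 10 were measured and 0 were outside the range, which for so few genes is again near the share of all genes. They include YY1, with 3023 counts in the TFCP2 library, 2503 to 3935 in the 7 other TF libraries and 3285 in the control library, and HDAC1, a histone deacetylase, with 4129 counts with TFCP2, 3212 to 3921 with the other TFs and 4580 in the control.

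Some genes were high or low in the TFCP2 and control libraries together. This was looked at because the control held TFCP2 counts, and the genes named were chosen after their values were seen. Both libraries were above the 7 other TF libraries for 504 genes and below them for 410, which ranked 11 and 14 among the 36 pairs of libraries. RMRP, the RNA of RNase MRP, which processes ribosomal RNA, had 57 counts in the TFCP2 library. It had 16 in NRF1, 14 in E2F4, 18 in EGR1, 16 in ZBTB7A, 20 in HOXA11, 31 in RORA and 19 in NKX2-8, and 74 in the control library. Its log2 ratio was 1.40 over the 7 other TF libraries and -0.29 over control. An unnamed gene, ENSG00000259001, had 40 counts in the TFCP2 library, 12 to 23 in the 7 other TF libraries and 59 in the control library. In RMRP and ENSG00000259001 the control was higher than TFCP2 by counts, and both were clear of the 7 other TFs. Below the 7 other TF libraries in both, ITGB4, the hemidesmosome integrin, had 59 counts with TFCP2, 78 to 132 with the other TFs and 56 in the control. CHST9, a sulfotransferase gene, had 39 counts with TFCP2, 54 to 93 with the other TFs and 40 in the control. For both genes TFCP2 and control had nearly the same counts. PDGFB, the growth factor, had 21 counts with TFCP2, 30 to 158 with the other TFs and 21 in the control. EPHB6, an ephrin receptor gene, had 46 counts with TFCP2, 67 to 295 with the other TFs and 46 in the control. Whether the TFCP2 counts of the control library had a part in this was not tested.

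Across all genes, TFCP2 and control were the closest pair. They had 94 genes at least 2-fold apart, the lowest number of the 36 pairs. TFCP2 and RORA had 122, RORA and control 126, TFCP2 and HOXA11 178, and HOXA11 and control 210. TFCP2 and NRF1 had 1128. At 5 CPM or more in the higher library, TFCP2 and control had 2 genes apart and TFCP2 and RORA had 1, so that RORA was then the nearest to TFCP2.

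**Figure D3:**
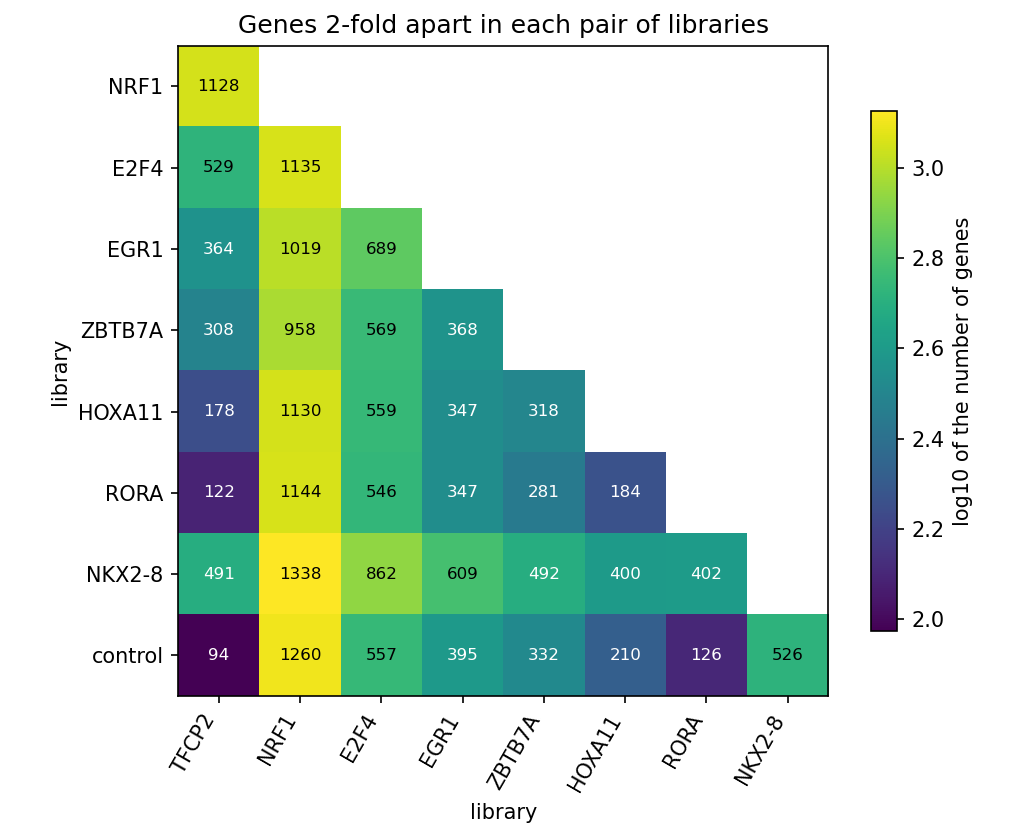
Number of genes at least 2-fold apart, at 1 CPM or more in the higher library, for each of the 36 pairs of the 9 libraries, with the colour giving the log10 of that number. The TFCP2 and control pair had 94 genes, the lowest, followed by TFCP2 and RORA with 122.

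Of the 23 gene lists with at least 5 measured members, the p53 targets had the largest median over control. The median log2 ratio of these 20 genes was 0.26 over control and 0.17 over the 7 other TF libraries, beside -0.0035 and 0.013 for all 15468 genes measured. All 20 had more CPM in the TFCP2 library than in the control library, against 49.2% of all genes, and 5 were above all 8 other libraries, against 6.71% of all genes. CDKN1A, the cell cycle inhibitor p21, had 1331 counts in the TFCP2 library, 870 to 1422 in the 7 other TF libraries and 1034 in the control library. BTG2, an antiproliferative deadenylase adaptor, had 808 counts with TFCP2, 411 to 679 with the other TFs and 573 in the control. ZMAT3, an RNA-binding p53 effector, had 320 counts with TFCP2, 203 to 310 with the other TFs and 235 in the control. CDKN1A was within the range of the other libraries, and BTG2 and ZMAT3 were above it. BBC3, the cell death gene PUMA, had 620 counts with TFCP2, 421 to 634 with the other TFs and 559 in the control. TNFRSF10B, a TRAIL receptor gene, had 1141 counts with TFCP2, 694 to 1046 with the other TFs and 1024 in the control. By CPM, BTG2, ZMAT3, BBC3, TNFRSF10B and MDM2 were the 5 above all others, and the counting intervals of all but MDM2 against the nearest library included 1. The pattern over control was shared by other libraries, since 19 of the 20 genes were above control in RORA, 18 in HOXA11 and 17 in NKX2-8, with median log2 ratios of 0.33, 0.16 and 0.43. All these ratios have the same control library below the line.

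**Figure D4:**
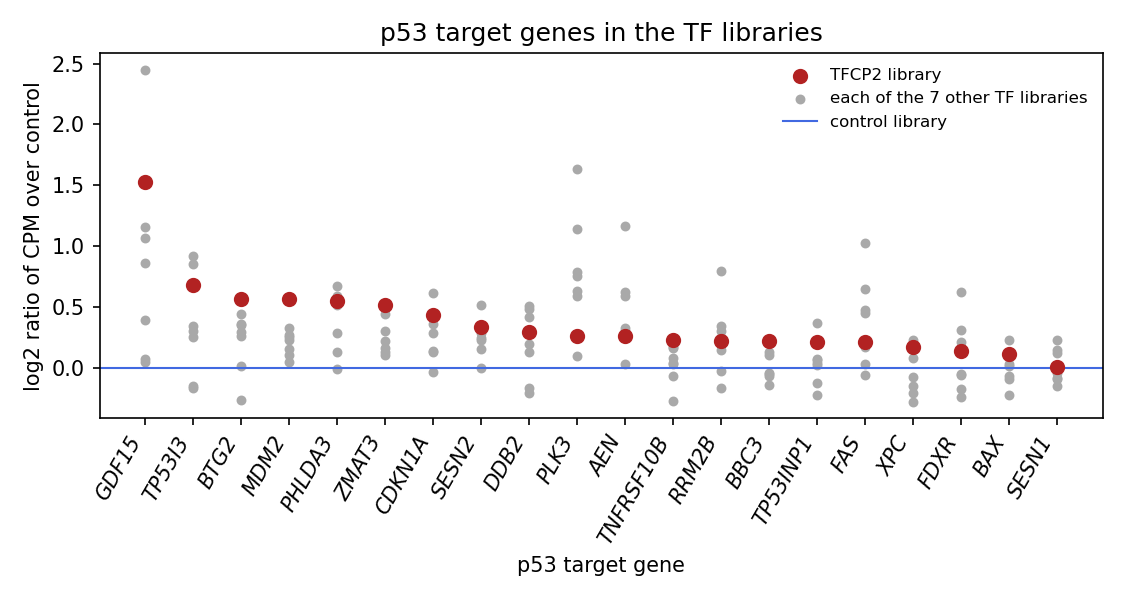
Log2 ratio of CPM over the control library for 20 p53 target genes, with the TFCP2 library as large red points, each of the 7 other TF libraries as a small grey point and the control as the blue line at 0. All 20 red points were above the line, from 0.01 for SESN1 to 1.53 for GDF15, and 15 of them were not above all the grey points.

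Other lists lay nearer to all genes over control. Replication-dependent histone genes had a median log2 ratio of -0.12 over control and -0.29 over the 7 other TF libraries, with 13 of 30 measured and 5 of the 13 below all 8 other libraries, against 5.24% of all genes. Among the 13 measured, H2BC21 had 119 counts in the TFCP2 library, 99 to 198 in the 7 other TF libraries and 193 in the control library. H1-2 had 359 counts with TFCP2, 334 to 519 with the other TFs and 467 in the control. The range was set by CPM, so these counts alone do not place either gene. Neuronal genes had a median of 0.06 over control and -0.39 over the 7 other TF libraries, with 4 of 27 below all 8 others, also against 5.24% of all genes, and the sign thus turned with the library they were set against. SCRT1, a neuronal repressor, had 4 counts in the TFCP2 library, 4 to 168 in the 7 other TF libraries and 2 in the control library. Heat-inducible chaperones had 0.10 over control and 0.03 over the 7 other TF libraries, with 3 of 15 above all others, against 6.71% of all genes. HSPA1B had 16803 counts in the TFCP2 library, 8796 to 14898 in the 7 other TF libraries and 13911 in the control library, and its near-identical copy HSPA1A makes this split uncertain. HSPA6, the strictly inducible member, had 23 counts with TFCP2, 6 to 518 with the other TFs and 12 in the control.

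Lists with a link to growth, those of DNA replication, mitosis and ribosomal protein genes, had medians near those of all genes. DNA replication genes had a median of -0.04 over control and 0.02 over the 7 other TF libraries, with 3 of 40 above all 8 other libraries, and mitosis genes had -0.06 and 0.05, with 6 of 36 above and 2 below. Large subunit ribosomal proteins had -0.07 and 0.06, with 0 of 45 higher than control and 43 higher than the mean of the 7 other TF libraries. Of all genes, 49.2% were higher than control and 54.2% higher than that mean. The counts of the ribosomal list thus lay far from these shares on both comparisons, although its medians were small. Its median over control was also negative in the 7 other TF libraries, at -0.27 to -0.05, with TFCP2 inside that span. Of lists without that link, mitochondrially encoded genes had -0.01 and -0.09, with 0 of 13 outside the range. Also 0 of these 13 were higher than the mean of the 7 other TF libraries, against 54.2% of all genes. Their median over control was -0.34 to 0.46 in those 7 libraries, with TFCP2 inside that span. HOX genes had -0.03 and 0.09, with 4 of 36 above and 3 below, and interferon genes had 0.11 and -0.04, with 1 of 14 above and 2 below. Over all genes 6.71% were above and 5.24% below, a share that the DNA replication genes above were near and the mitosis and HOX genes above exceeded. For ribosomal, mitosis, HOX and interferon genes the sign depended on whether the control or the 7 other TF libraries were the comparison.

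**Figure D5:**
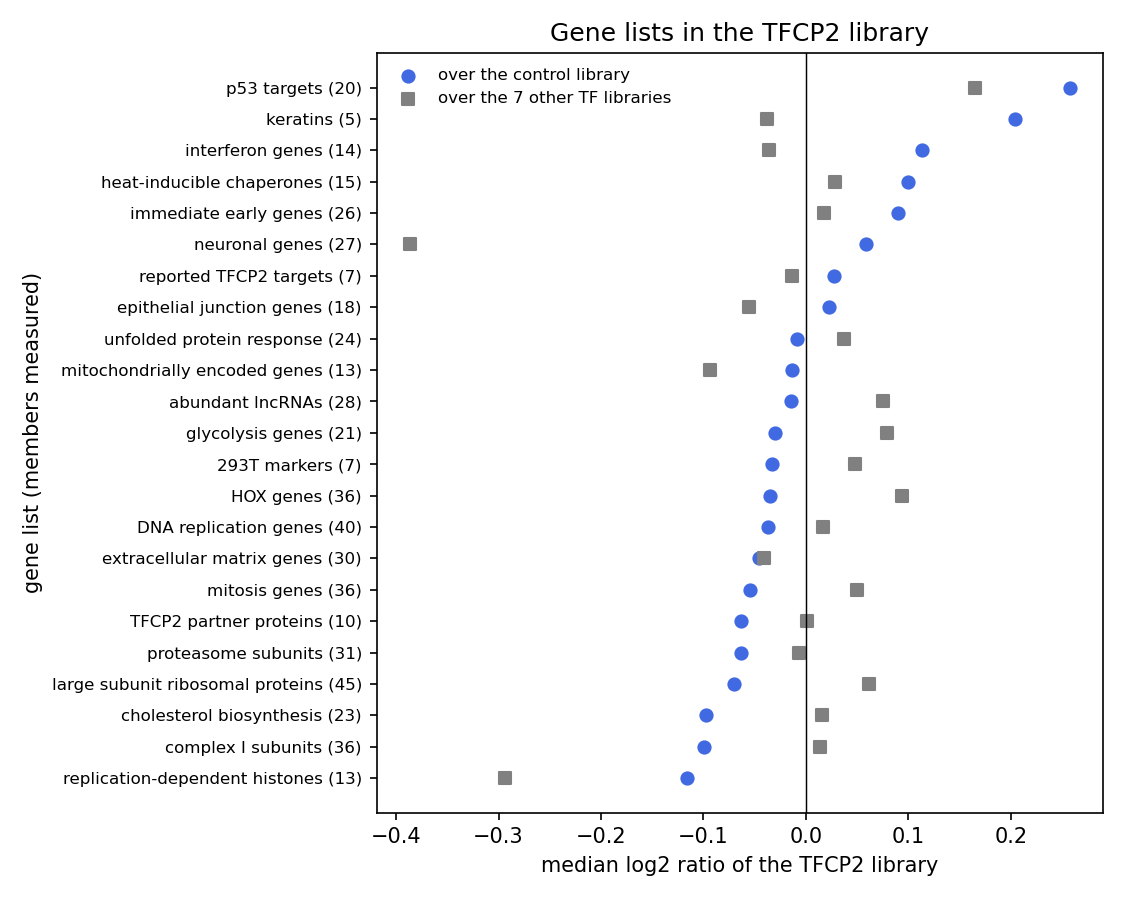
Median log2 ratio of the TFCP2 library over the control library (blue circles) and over the 7 other TF libraries (grey squares) for 23 gene lists with at least 5 measured members, with the number measured in brackets. The p53 targets lay at 0.26 over control and the histones at -0.12, and the neuronal genes lay at -0.39 over the 7 other TF libraries.

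Conserved lncRNAs had somewhat smaller ratios than other lncRNAs. None of the 226 conserved lncRNAs at 1 CPM or more was 2-fold apart between TFCP2 and control. Of 1131 other lncRNAs, 26 were higher and 15 lower in the TFCP2 library. Over all genes 0.484% were higher and 0.185% lower, so that 0 of 226 is near the share of all genes. It is below the share of the other lncRNAs. At a mean of 0.5 CPM or more, the median absolute log2 ratio over control was 0.21 for 311 conserved lncRNAs and 0.27 for 1732 others. The difference was -0.05 for TFCP2 and -0.04 to 0.03 for the 7 other TF libraries. Conserved lncRNAs had a median level of 1.74 CPM and the others 1.21 CPM. The part of level in this difference and in the counts of genes 2-fold apart was not tested. Outside the range of the other 8 libraries were 26 above and 20 below of 297 conserved lncRNAs, and 157 above and 121 below of 1670 others, or 8.75% and 6.73% against 9.40% and 7.25%.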

How the data were processed

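Raw counts of reads per gene were used as deposited. To make them, the authors used FastQC 0.11.2 for read quality, STAR 2.6.0c for alignment to GRCh37 and featureCounts 1.6.3 for counting, with no normalization, as the submitters' processing notes and the methods state. A directional kit was used, and the strand setting is not stated in these sources. The table has 57163 genes, of which 25134 were given a symbol from GENCODE v44lift37, gene name tables or the lncRNA list of the study. Library totals were 14177970 to 18915400, so counting error limits genes with few counts.

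Library sizes were scaled with the TMM factors of edgeR 4.0.16, run in R 4.3.3, and a prior count of 2 went into log2 ratios. As each condition had 1 library, TFCP2 against control is given with no p-value, with 95% exact conditional binomial intervals of count ratios that cover counting error only. A gene was taken as apart at 2-fold and 1 CPM in the higher library, and as outside the range when its CPM was above or below all 8 other libraries. TFCP2 was tested against the 7 other TF libraries with edgeR's quasi-likelihood test after filterByExpr, with Benjamini-Hochberg adjustment at 0.05. The script was tested on simulated counts. Alternatives were library totals, DESeq2 size factors and its Wald test (DESeq2 1.42.0), other minimum levels, folds and prior counts, and leaving out each library.

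Of genes with a symbol, those named were the 10 mRNA genes and 5 lncRNAs furthest above the nearest library and the 8 and 4 furthest below, by the ratio of CPM + 0.25. Further ones were the 6 and 4 with the largest rise and the 4 and 3 with the largest fall over control by log2 ratio with a prior count of 5, genes called by edgeR, relatives and reported targets of TFCP2, RMRP and list members. Of the list members that the rule gives, only some are described. List medians are over members with a mean of 0.5 CPM or more, for 29 lists, of which 23 had at least 5 such members. The genes and lists were chosen with earlier results of these data known. Promoters were the 300 bases before GENCODE canonical starts, searched for exact matches.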

Additional observations from a re-analysis of the deposited data

Results flagged for a closer look

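Across the 8 libraries with no TFCP2 insert, the TFCP2 level of the control library stood far above the rest. The gap between the control and the next library was 0.981 of the whole range of the 8, above Dixon's 95% critical value for 8 values. SLCO1A2 was flagged in the same 8 libraries because NKX2-8, with 4 counts, stood above the others, with a gap of 0.529 of the range. That flag rests on a few counts and lies just past the critical value. Chance alone flags about 1 in 20 groups.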

How the results depend on the processing

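The number of genes 2-fold apart from control depended on the cutoffs. With no minimum on CPM, 789 genes were higher and 547 lower, at a minimum of 5 CPM 2 and 0, at a fold of 1.5 328 and 165, and with a prior count of 5 38 and 11. With a prior count of 0.5, 41 were lower. With the mean CPM of the 7 other TFs in place of control, 8 were higher and 231 lower. Outside the range of the other 8 libraries were 2414 above and 1251 below with no minimum, 469 below at 5 CPM, 2 above and 23 below at a 1.5-fold margin, and 1 above and 0 below at a 2-fold margin. A change of minimum also changes which genes were tested. In 60 of the 68 higher and 25 of the 26 lower genes the highest library was under 5 CPM. The causes of the changes in these numbers were not tested. Leaving out each of the 7 other TF libraries gave 0 to 1 genes called higher by edgeR and log2 ratios of SLCO1A2 of 5.41 to 6.22. The same call was lost with library totals (log2 ratio 5.64, 0 genes called, edgeR adjusted p = 0.0545), and kept with DESeq2 size factors, DESeq2, no filter or the control included. The lists with a median over control 0.1 or more from that of all genes were 5, and 3 at a mean of 5 CPM. At this level the neuronal list lay at -0.07 and the interferon list at 0.11 over the 7 other TF libraries. TFCP2 and control had 2 genes apart at 5 CPM. The 138 ratios of 69 named genes under other scalings were within their counting intervals, and library totals moved the median of all genes over control to 0.03. No paired analysis was possible because each condition had 1 library.

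Each ratio between 2 libraries carries no replicate error. Nearly all genes apart between TFCP2 and control had under 5 CPM, where counting intervals are wide, and a difference smaller than that was not detectable at this depth. The control library held TFCP2 counts, and whether its cells lacked added TFCP2 was not tested.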
